A study of Mus musculus with 6 samples.

Results

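The EGR, IER and NR4A genes considered here are 10 immediate early genes outside the AP-1 family, namely Egr1, Egr2, Egr3, Ier2, Ier3, Ier5, Nr4a1, Nr4a2, Klf6 and Btg2. They were found on the arrays by gene name among the non-control probes, which gave 12 probes for the 10 genes, of 55681 probes and 34761 gene names in all. The arrays measured RNA of CD71highTer119+ erythroblasts, the red cell precursors that carry the transferrin receptor and glycophorin-associated Ter119, sorted from the BM of 6 C57Bl/6 mice on day 4 of recovery from hemolytic anemia. The anemia was brought on by 1 dose of phenylhydrazine (PHZ, 100 mg per kg), an oxidant that lyses red cells. The question was how the deletion of P38α, a stress-activated MAP kinase encoded by Mapk14, alters gene expression in these cells.

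The 3 P38α-/- mice carried Mx1-Cre and floxed P38α on both chromosomes, and the 3 P38α+/- control mice carried Mx1-Cre and floxed P38α on one chromosome, so the controls too had lost an allele. Both genotypes received 3 injections of PolyIC (300 µg each) at 6 to 8 weeks of age and rested for 6 weeks before PHZ. Mx1-Cre is driven by an interferon-inducible promoter that is active in blood-forming cells and in other tissues, so the deletion was not limited to erythroid cells. Males and females were used. Each mouse gave 1 Agilent whole-genome array in 1 colour (Cy3), made from 10 ng of amplified RNA.

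Immediate early genes are transcribed within minutes of a signal, without new protein synthesis, because the factors that switch them on are already present and need only be phosphorylated. MAP kinases reach them by way of SRF with its ELK partners at CArG boxes, and by way of CREB at cAMP response elements, where MSK kinases downstream of ERK and P38 act. Their transcripts decay quickly. EGR proteins are zinc finger transcription factors, NR4A proteins are orphan nuclear receptors that bind DNA without a known natural ligand, and the IER group shares its early induction and not a protein family.

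Promoter sequence is shown for 4 members, picked after their values were seen: the genes whose brightest tested probe read below P38α+/- in all arrays labelled P38α-/- (Nr4a1 and Nr4a2) or above it in all (Ier3 and Klf6). Ier5, of which the dimmer of 2 tested probes read below in all, is not among them. RefSeq windows on GRCm38.p6, of 250 bases before and 50 bases after the start, matched 7 of the 10 members with 11 windows, and Egr1, Egr3 and Ier2 had no entry. Each window was searched on both strands for TGACG (the core of the cAMP response element), its full form TGACGTCA, the CArG box, the EGR site GCGGGGGCG and the NR4A element AAAGGTCA. TGACG stood in 20.8% of all 32851 windows, and every full element holds it on both strands. The windows of Nr4a1 and Nr4a2 held TGACG 4 times each, and those of Ier3 and Klf6 held none. The 250 bases before the start of these 4 genes are given 5′ to 3′ on the strand of the gene, with TGACG or its reverse complement in capitals, at chr15:101266596-101266845 (plus strand) for Nr4a1, chr2:57124004-57124253 (minus) for Nr4a2, chr17:35821463-35821712 (plus) for Ier3 and chr13:5861239-5861488 (plus) for Klf6.
Nr4a1: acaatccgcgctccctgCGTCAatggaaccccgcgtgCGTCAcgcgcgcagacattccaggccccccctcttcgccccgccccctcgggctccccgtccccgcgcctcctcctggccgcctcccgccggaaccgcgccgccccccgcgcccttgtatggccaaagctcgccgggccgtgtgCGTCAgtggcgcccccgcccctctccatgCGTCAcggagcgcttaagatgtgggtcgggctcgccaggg
Nr4a2: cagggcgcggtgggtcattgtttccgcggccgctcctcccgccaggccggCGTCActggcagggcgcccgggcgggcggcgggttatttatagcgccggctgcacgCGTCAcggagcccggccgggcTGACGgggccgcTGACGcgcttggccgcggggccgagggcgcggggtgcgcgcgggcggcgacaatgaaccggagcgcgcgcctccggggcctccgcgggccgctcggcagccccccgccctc
Ier3: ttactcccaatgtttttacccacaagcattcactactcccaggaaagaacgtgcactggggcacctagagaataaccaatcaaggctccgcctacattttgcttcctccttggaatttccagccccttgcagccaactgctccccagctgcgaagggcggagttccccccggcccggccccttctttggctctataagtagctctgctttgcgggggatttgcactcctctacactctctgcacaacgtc
Klf6: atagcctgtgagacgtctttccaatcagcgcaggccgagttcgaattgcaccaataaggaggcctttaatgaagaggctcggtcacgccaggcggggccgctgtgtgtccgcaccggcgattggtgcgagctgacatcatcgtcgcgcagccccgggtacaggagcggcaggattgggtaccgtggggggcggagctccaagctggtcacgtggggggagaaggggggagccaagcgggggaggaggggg

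In Nr4a1 the 4 matches began at positions −233, −213, −69 and −40 from the start, and an EGR site, present in 2.91% of all windows, began at −60. In Nr4a2 they began at −200, −144, −123 and −111. Btg2 had 1 full cAMP response element, beginning at −166, a form found in 1.79% of windows. Of the 5 windows of Egr2, 4 held a CArG box, present in 1.63% of all windows, and 3 held TGACG, but the windows overlap and share sites, so that there were 2 distinct CArG boxes and 2 distinct TGACG sites. Ier5 held none of the 5 motifs, and AAAGGTCA, found in 1.51% of all windows, was in no window of a member. These matches describe letters in a window and were not tested against the expression values.

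Expression is given on a log2 scale on which 0 is the 75th percentile of an array's signal, taken over 15150 probes that every one of the 6 arrays measured well above background. A difference of 1 is a doubling, and values of different genes are not set against each other because probes differ in brightness. Probes well above background made up 28.5% to 53.1% of each array. Mapk14 itself was not lower in the arrays labelled P38α-/-. Its brighter probe read 0.33, 0.59 and 0.61 in P38α+/- and 0.77, 1.19 and 1.21 in the arrays labelled P38α-/- (adjusted p = 0.185, limma), and the positions of the deleted exons are not given in the sources used here, so these probes do not check the deletion. All 12 erythroid markers were well above background, with a summed signal of 1022 to 1729 times the percentile in P38α+/- and 1023 to 1765 in the arrays labelled P38α-/-. P38α-/- replicate 3 was alone on its slide. A gene was called changed if a probe had an adjusted p of at most 0.05 and a fold of at least 2 in limma, which tested 18547 probes of 14025 genes, among them 8 probes of 7 members. The median log2 fold change of all tested probes was −0.16.

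Nr4a1, Nr4a2 and Egr1 read lower in all 3 arrays labelled P38α-/- than in every P38α+/- array, and Ier3 and Klf6 read higher in all 3. The log2 differences were −2.61 for Nr4a1, −1.49 for Nr4a2, −3.17 for Egr1, 1.40 for Ier3 and 0.95 for Klf6. Ier2, Btg2, Egr2 and the brighter probe of Ier5 overlapped between the genotypes. None of the tested differences passed the threshold, and the 3 EGR genes were too dim to be tested. Of the 7 tested members 0 were called, beside 29 of all 14025 genes (0.207%), and the adjusted p-values of their 8 tested probes ran from 0.0981 to 0.468. The 29 genes were 23 higher and 6 lower, and the fit with the replicate number as a block, which called 67 genes, also called 0 members. In RNA of a sorted population, fewer cells of a type and less RNA per cell cannot be told apart.

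**Figure D1:**
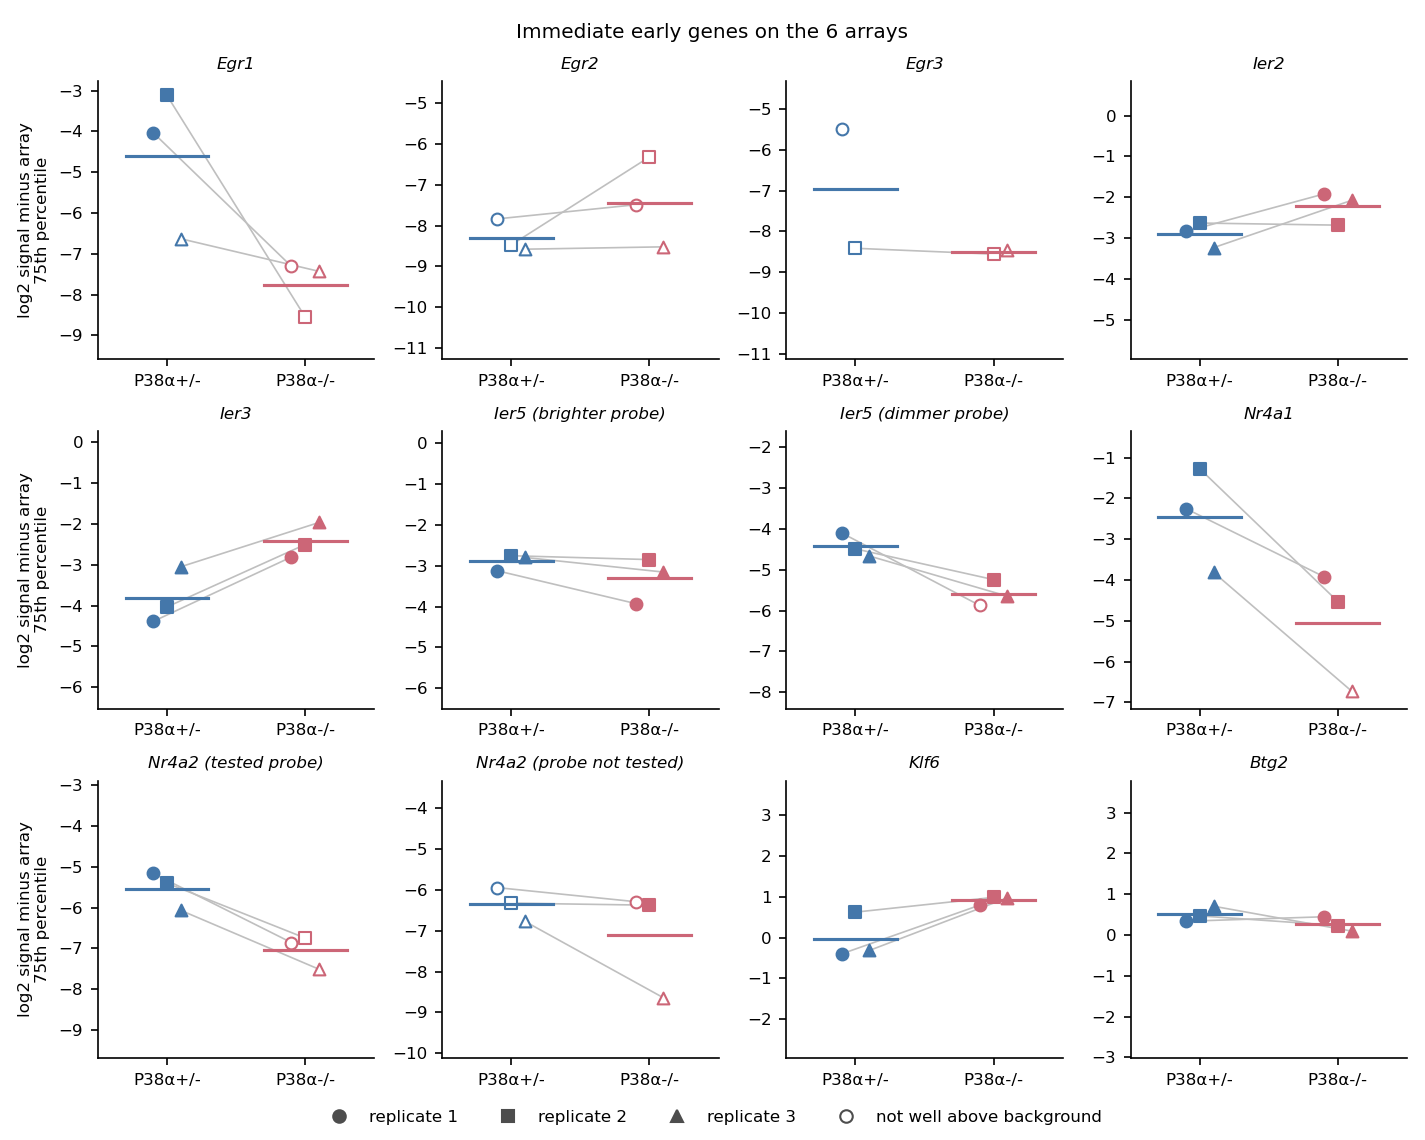
Log2 signal minus the array's 75th percentile of each of the 12 probes (vertical axes, all 6.8 units high but centred separately), with P38α+/- in blue and arrays labelled P38α-/- in red; grey lines join arrays of the same replicate number, bars are means and open symbols were not well above background. Egr1, Nr4a1 and both probes of Nr4a2 and of Ier5 read lower on the right in all 3 pairs. Ier3 and Klf6 read higher in all 3, as did Egr2, which was well above background on no array. Horizontal offsets only separate the replicates.

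Egr1, the best studied EGR factor and a direct SRF target, read −4.03, −3.12 and −6.63 in P38α+/- replicates 1 to 3 and −7.30, −8.55 and −7.43 in the arrays labelled P38α-/-. Only P38α+/- replicates 1 and 2 were well above background, so the probe, at chr18:35024395-35024454 of mm9, was below the detection needed for the test. The means were −4.59 ± 1.82 and −7.76 ± 0.68 (SD, n = 3 each), and the exact two-sided permutation p was 0.10, the smallest that 3 arrays against 3 allow. Set against the lowest signal well above background in each array labelled P38α-/-, the P38α+/- mean of Egr1 was 3.09-fold higher. This is not a lower bound, since that mean includes P38α+/- replicate 3, where Egr1 was not well above background. The difference within replicate numbers was −3.27, −5.43 and −0.80, so its size was set mainly by P38α+/- replicates 1 and 2. Without P38α+/- replicate 3, where Egr1 was dim, the probe entered the test through the remaining P38α+/- arrays and was called, with a log2 fold change of −4.19 (adjusted p = 0.0473, limma) beside 304 of 15022 genes (2.02%). Since leaving out that array is what let the probe into the test, nothing is read from this call.

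Egr2, known for its part in myelination and in T cell tolerance, was well above background on none of the 6 arrays. It read −7.84, −8.48 and −8.58 in P38α+/- and −7.49, −6.32 and −8.52 in the arrays labelled P38α-/-, on chr10:67004798-67004857. The genotypes overlapped (exact permutation p = 0.30), and no fold is given. Egr3, an EGR factor of muscle spindles and lymphocytes, was likewise well above background on none. Its spots on P38α+/- replicate 3 and P38α-/- replicate 1 were marked as outliers by the scanner software and left out. The other arrays read −5.48 and −8.41 in P38α+/- replicates 1 and 2 and −8.55 and −8.45 in P38α-/- replicates 2 and 3, on chr14:70479222-70479281, where an exact permutation test cannot go below 0.333. The latter read just below P38α+/- replicate 2, and replicate 1 stood apart above them. Of the 3 EGR members, then, only Egr1 was detected, and only in P38α+/- replicates 1 and 2.

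Nr4a1, also called Nur77, is an orphan receptor known for its induction by antigen receptors and in activated myeloid cells. It read −2.25, −1.27 and −3.81 in P38α+/- and −3.92, −4.53 and −6.73 in the arrays labelled P38α-/-, on chr15:101105071-101105130. It was well above background on all but P38α-/- replicate 3. The genotypes did not overlap, but only 0.11 separated P38α+/- replicate 3 from P38α-/- replicate 1. The log2 fold change was −2.61 (SE 0.90, adjusted p = 0.184, limma), a 6.12-fold lower mean, with SDs of 1.28 and 1.48 (n = 3 each). Within replicate numbers it differed by −1.67, −3.26 and −2.91, so each of the 3 pairs showed the same direction.

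Nr4a2, or Nurr1, the NR4A receptor needed by dopamine neurons, had a pair of probes 1062 bases apart. The tested probe, on chr2:56960699-56960758, read −5.16, −5.40 and −6.07 in P38α+/- and −6.86, −6.75 and −7.51 in the arrays labelled P38α-/-. It was well above background in all 3 P38α+/- arrays and in none of the others, and the genotypes did not overlap. Its log2 fold change was −1.49 (SE 0.31, adjusted p = 0.104, limma). As a bound, this probe read at least 1.60-fold lower with the reported scaling, and the bound does not hold for the gene under other processing. The other probe, on chr2:56959637-56959696, read −5.94, −6.32 and −6.77 in P38α+/- and −6.29, −6.37 and −8.64 in the arrays labelled P38α-/-. That probe was well above background only in P38α-/- replicate 2, overlapped between genotypes (exact permutation p = 0.60) and was not tested. The lower reading of Nr4a2 in every array therefore rests on 1 of its 2 probes.

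Ier3, also called IEX-1, is an early response protein known for modulating cell survival and ERK signalling. It read −4.39, −4.03 and −3.05 in P38α+/- and −2.81, −2.50 and −1.96 in the arrays labelled P38α-/-, on chr17:35959528-35959587, and was well above background on all 6. The genotypes did not overlap. Its log2 fold change was 1.40 (SE 0.39, adjusted p = 0.145, limma), a 2.64-fold higher mean, and the exact permutation p was 0.10. The 3 pairs of replicate numbers differed by 1.58, 1.53 and 1.08, a narrower range than that of any other member with groups that did not overlap except Nr4a2.

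Ier2, a nuclear protein induced by growth factors, read −2.84, −2.63 and −3.24 in P38α+/- and −1.92, −2.68 and −2.08 in the arrays labelled P38α-/-, on chr8:87186214-87186273. P38α-/- replicate 2 lay among the P38α+/- arrays, so the groups overlapped. The log2 fold change was 0.68 (SE 0.27, adjusted p = 0.222, limma). Ier5, which binds PP2A and regulates HSF1, had a pair of probes 2235 bases apart. The brighter probe, on chr1:156945765-156945824, read −3.12, −2.75 and −2.80 in P38α+/- and −3.93, −2.85 and −3.15 in the arrays labelled P38α-/-, with a log2 fold change of −0.42 (SE 0.30, adjusted p = 0.467, limma) and overlap. The dimmer probe, on chr1:156943530-156943589, read −4.10, −4.49 and −4.66 in P38α+/- and −5.87, −5.24 and −5.65 in the arrays labelled P38α-/-. It did not overlap and had a log2 fold change of −1.17 (SE 0.24, adjusted p = 0.0981, limma), with P38α-/- replicate 1 not well above background. The probes of Ier5 thus had the same sign but differed in size and in overlap, and the brighter one turned to 0.06 when arrays were scaled to the percentile of all probes.

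Klf6, a Krüppel-like zinc finger factor, read −0.40, 0.63 and −0.31 in P38α+/- and 0.80, 0.99 and 0.98 in the arrays labelled P38α-/-, on chr13:5869371-5869430. P38α+/- replicate 2 stood 0.17 below the lowest array labelled P38α-/- and 0.94 above the next P38α+/- array. Klf6 had a log2 fold change of 0.95 (SE 0.29, adjusted p = 0.158, limma), a 1.93-fold higher mean, with an SD of 0.57 in P38α+/- against 0.11 in the arrays labelled P38α-/- (n = 3 each). Btg2, an antiproliferative protein that recruits the CCR4-NOT deadenylase and is a known P53 target, read 0.34, 0.47 and 0.70 in P38α+/- and 0.45, 0.23 and 0.09 in the arrays labelled P38α-/-, on chr1:135972094-135972153. The genotypes overlapped, and the log2 fold change of −0.25 (SE 0.18, adjusted p = 0.468, limma) turned to 0.24 with the percentile of all probes.

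**Figure D2:**
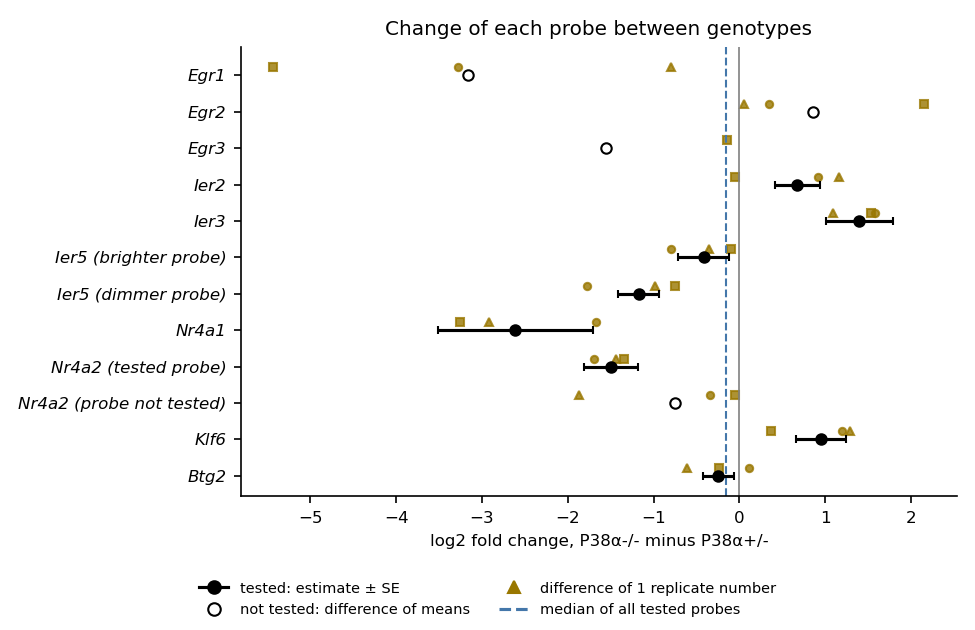
Log2 fold change of each probe, arrays labelled P38α-/- minus P38α+/- (horizontal axis). Black points are limma estimates with SE or, open, differences of means of untested probes; brown symbols are the difference within each replicate number and the dashed line is the median of all tested probes, −0.16. Nr4a1 at −2.61 has the widest error of the tested probes, and Ier3 at 1.40 and Klf6 at 0.95 lie on the other side of the line; Ier5 (brighter probe) and Btg2 change sign when arrays are scaled to the percentile of all probes.

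Across the members the spread between arrays of 1 genotype differed widely. It was an SD of 1.82 for Egr1 and 1.28 for Nr4a1 in P38α+/-, against 0.19 for Btg2 and 0.31 for Ier2. Among tested members 2 (Ier3 and Klf6) had all arrays labelled P38α-/- above all P38α+/- arrays, beside 7.44% of all tested genes, and 2 (Nr4a1 and Nr4a2) had them all below, beside 19.9%. An unadjusted p under 0.05 with a fold of at least 2 was met by 4 of the 7 (Ier3, Nr4a1, Nr4a2 and, by its dimmer probe, Ier5), beside 10.7% of all genes. Without the fold it was met by 6, Klf6 and Ier2 too, beside 23.9%, while 0 members passed the unpaired equal-variance test of the methods after adjustment. With 7 genes these counts describe the members and were not tested. Nr4a1, Nr4a2 and the dimmer probe of Ier5 entered the test only through P38α+/-, where they read higher. The filter thus favoured lower readings of these probes, and nothing is read from the counts that include them. The difference between members of one array does not depend on the scaling of that array, so the changes were also set against each other, for genes picked after their values were seen. The log2 fold change of Ier3 exceeded that of Nr4a1 by 4.01, with 2.44 to 5.96 over the alternatives. That of Klf6 exceeded it by 3.56, with 2.41 to 4.88. Nr4a1 was measured well above background in 2 of the 3 arrays labelled P38α-/-.

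The calls of the members depended on the processing. Scaling each array to the 75th percentile of all its probes, which moved the median of all tested probes to 0.32, called 3 members. They were Ier3 (1.88, adjusted p = 0.00682), Klf6 (1.43, adjusted p = 0.0253) and Nr4a1 (−2.13, adjusted p = 0.0124), in limma, beside 778 genes (5.55%) of which 53.9% were higher, against 79.3% as reported above. Weighting the arrays by their fit called 4 members, Ier3 (1.76, adjusted p = 0.0215), Nr4a1 (−4.20, adjusted p = 0.0255), Nr4a2 (−1.83, adjusted p = 0.0164) and the dimmer probe of Ier5, in limma, beside 1647 genes (11.7%), of which 14.6% were higher. Here too, Nr4a1, Nr4a2 and the dimmer probe of Ier5 are probes that entered the test through P38α+/- alone. In the weighted fit P38α-/- replicate 3 had a weight of 3.97 and P38α+/- replicate 2 one of 2.13, and the other 4 arrays had 0.471 to 0.771. The direction of Egr1, Egr2, Ier2, Ier3, Nr4a1, Nr4a2 and Klf6 was the same in every alternative that was run. Some alternatives could not change a member's value, and Egr2 was well above background on no array. Nr4a1 lay between −4.20 and −1.49, Ier3 between 0.95 and 2.04 and Klf6 between 0.68 and 1.43. Nr4a2 came down to −0.25 and Egr1 to −0.76 with normexp background correction, which adds an offset to dim signals. Nr4a2 also came down to −0.34 in the authors' table and to −0.50 with quantile normalization.

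**Figure D3:**
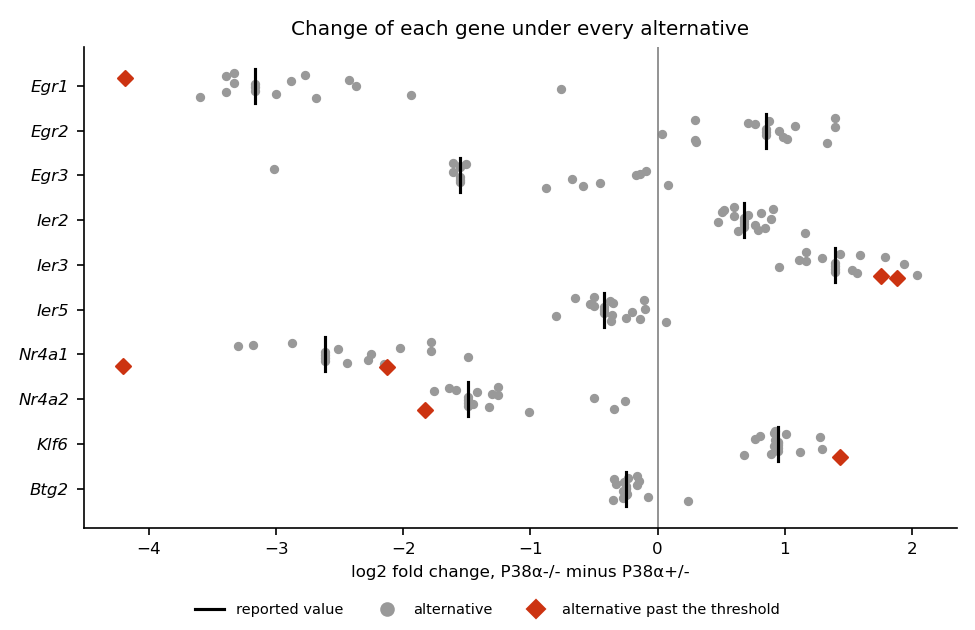
Log2 fold change of each gene (horizontal axis, arrays labelled P38α-/- minus P38α+/-) as reported (black bar) and in each alternative processing (grey points, red diamonds where the drawn value passed the threshold). Ier5 was called with array weights by its dimmer probe, which is not drawn. Vertical offsets within a gene only separate the points. Points stay on one side of 0 for 7 genes, and Egr3, Ier5 and Btg2 each have 1 point on the other side.

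Markers of other blood cells were measured beside the members, since Egr1 and Nr4a1 are also known in myeloid cells and lymphocytes. A marker counted as detected if it was well above background on any array. All 10 neutrophil markers were detected, with a summed signal of 171.0, 274.2 and 105.9 times the percentile in P38α+/- and 75.2, 80.1 and 55.8 in the arrays labelled P38α-/-. Of the 10, 9 read lower in every one of the latter, beside 19.9% of all tested genes. Of 10 monocyte or macrophage markers 9 were detected, all but Mrc1, at 2.19, 3.35 and 1.48 against 1.33, 1.21 and 0.902. All 7 T or NK cell markers were detected, summed at 1.41, 2.62 and 0.649 against 0.568, 0.530 and 0.439. Most of this sum was Nkg7 on every array. Cd3d, Cd3g, Klrb1c and Ncr1 were well above background in no array labelled P38α-/-. All 7 B cell markers were detected too, and their sum overlapped, with 0.137 to 1.22 in P38α+/- and 0.0550 to 0.187 in the arrays labelled P38α-/-. P38α+/- replicate 2 was highest, replicate 1 next and replicate 3 lowest of the controls for Egr1, for Nr4a1 and for each of these 4 sums. The tested probe of Nr4a2 was instead highest in replicate 1 of the controls. Among the arrays labelled P38α-/-, Nr4a1 and the monocyte or macrophage, T or NK and B cell sums fell from replicate 1 to 2 to 3. There the neutrophil sum was highest in replicate 2, where Egr1, well above background in none of them, was lowest. The part of these other blood cells in the values of Egr1, Nr4a1 and Nr4a2 was not tested. Within P38α+/-, Ier3 was highest in replicate 3 and Klf6 in replicate 2. Early progenitor markers (5 of 6 detected, all but Meis1) were summed at 0.197 to 0.648 against 0.0985 to 0.214. Of 6 megakaryocyte or platelet markers 4 were detected, all but Ppbp and Gp1bb, and their sum was 2.15 to 2.96 against 2.54 to 3.44, overlapping, with a median log2 fold change of 0.28 over the 4.

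**Figure D4:**
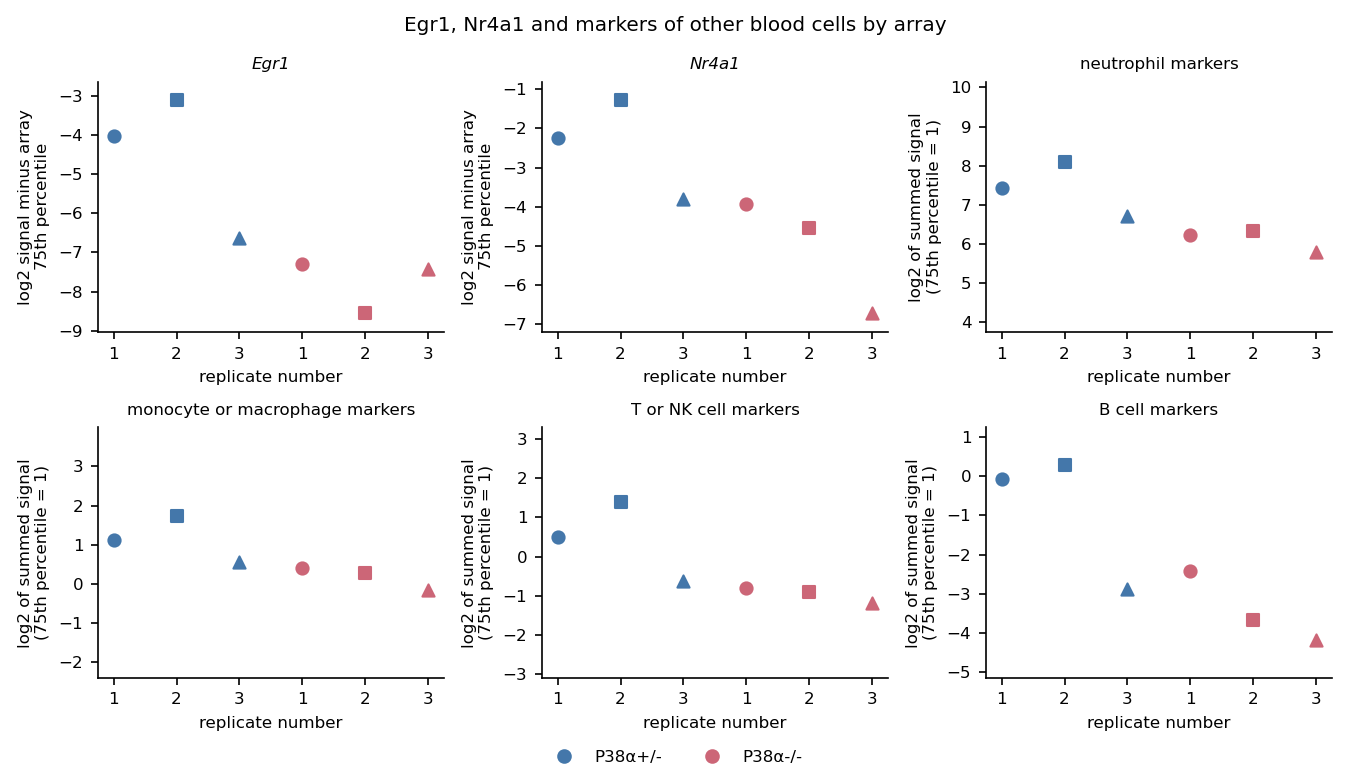
Egr1 and Nr4a1 (log2 signal minus the array's 75th percentile) and the log2 of the summed signal of 4 marker lists (percentile set to 1), by array, P38α+/- in blue and arrays labelled P38α-/- in red; each panel spans 6.4 log2 units. In all 6 panels P38α+/- replicate 2 is the highest array and replicate 1 the next.

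Other genes of the same response were read from 3 lists. The 12 relatives of the members by family (other EGR, NR4A, KLF, BTG, TOB and IER genes) had 10 tested, 0 called, 0 with all arrays labelled P38α-/- above and 1 with all below. Of all tested genes 7.44% were all above and 19.9% all below, the shares to set beside each list. The median log2 fold change was −0.26, beside −0.14 for all tested genes. Egr4 and Nr4a3, the remaining EGR and NR4A genes, were well above background nowhere. The lowest relative was Klf4, a factor of myeloid differentiation, at −2.45 (SE 0.65, adjusted p = 0.136, limma), and the highest was Btg3 at −0.0044. The 17 inducers and partners, such as SRF, the ELK factors, CREB family members and MSK kinases, had 15 tested, 0 called, 1 all above and 2 all below, and a median of −0.15. Their extremes were Mrtfb, an SRF coactivator, at 0.56 (adjusted p = 0.174) and Elk3 at −1.42 (adjusted p = 0.484), in limma. Klf4 and Elk3 were each well above background in all P38α+/- arrays but in only 1 array labelled P38α-/-. Both entered the test through P38α+/- alone, and dim signal limits the size of their change.

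The 30 other immediate early genes, AP-1 members among them, had 19 tested, 0 called, 2 all above and 11 all below. Of all tested genes 7.44% were all above and 19.9% all below. The list had a median log2 fold change of −1.17 and 14 of the 19 below the median probe, beside 6700 of all 14025 genes. Jund, an AP-1 factor, was highest at 1.66 (SE 0.33, adjusted p = 0.0949, limma). Fosb, another AP-1 factor, was lowest at −4.79 (SE 1.05, adjusted p = 0.105, limma), and since it was not well above background in any array labelled P38α-/-, its bound was at least 8.88-fold lower. This list held genes on both sides of the median probe, as the members did, but leaned lower, with 14 of 19 below it against 4 of 7 tested members. The difference was not tested. Fos, Fosb, Fosl2, Dusp2, Plk3, Sgk1, Gadd45b, Csrnp1, Trib1 and Nfil3, all below the median probe, entered the test only through P38α+/-. Each was well above background in all P38α+/- arrays but not in all arrays labelled P38α-/-. The filter thus favoured lower readings, so nothing is read from the lean or from the 11 all below.

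**Figure D5:**
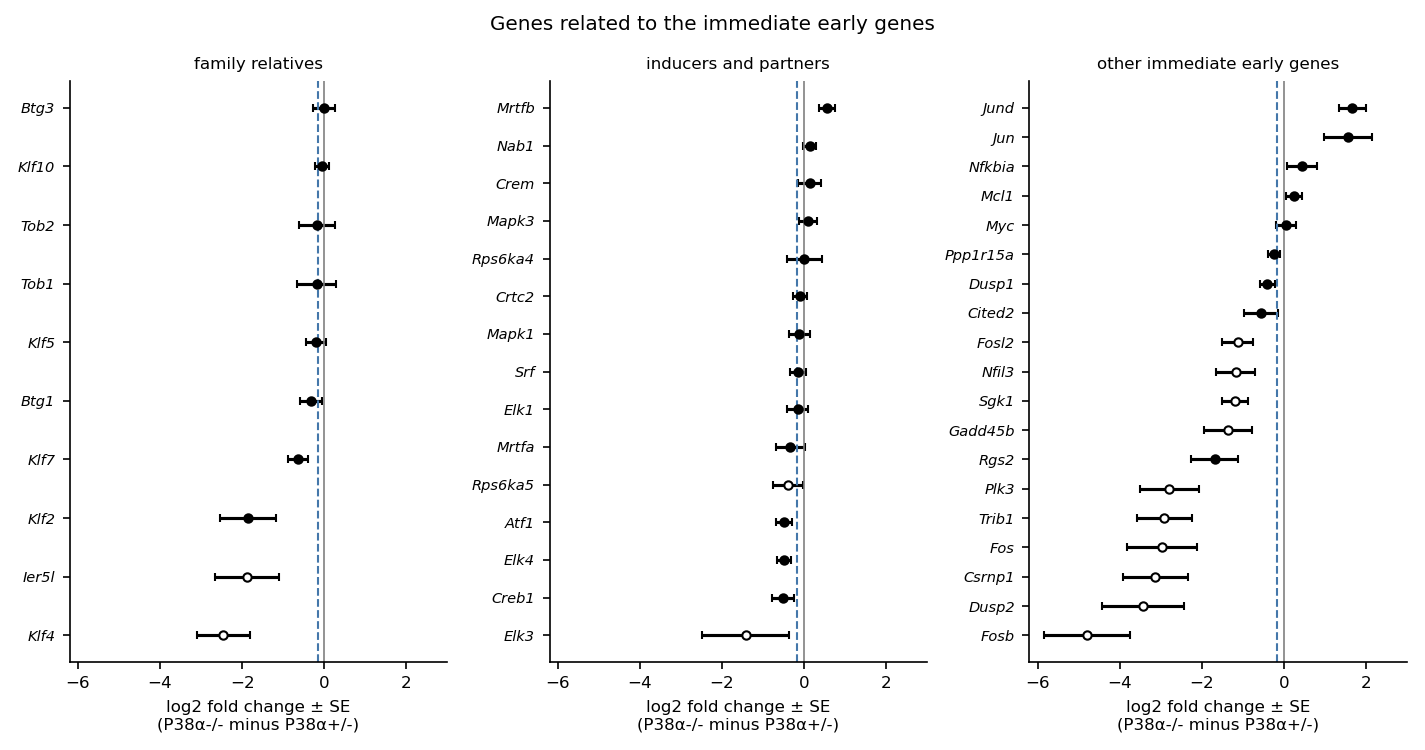
Log2 fold change with SE (horizontal axes, arrays labelled P38α-/- minus P38α+/-) of the tested genes of 3 lists; open points were not well above background on all 6 arrays and the dashed line is the median of all tested probes. The inducers and partners reach from 0.56 for Mrtfb to −1.42 for Elk3, and the other immediate early genes from 1.66 for Jund to −4.79 for Fosb.

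The genes with the pattern most like a member were looked for over the 6 arrays. Egr1 was not well above background on all 6, so Klf6, the member with the highest mean signal over the 6 arrays, was taken, and its values were correlated with 11727 other genes that were. The highest Pearson correlations were those of Pigv (0.997), Fam220a (0.984), Idh2 (0.978), Tm2d2 (0.973) and Crip1 (0.973). Among the members it was 0.739 for Ier2, 0.651 for Ier3, −0.238 for Ier5 and −0.600 for Btg2. These values describe 6 arrays of 2 genotypes that share their scaling.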

How the data were processed

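RNA of sorted CD71highTer119+ BM erythroblasts from 3 P38α+/- and 3 P38α-/- mice was measured on 1-colour Agilent arrays, 1 per mouse. The authors deposited the intensity of each spot as Agilent Feature Extraction 10.7.3.1 (per the header of each scanner output) wrote it, with background subtracted and no normalization between arrays. They also deposited a normalized table of intensities whose steps are not given in the sources used here. In that table the column of P38α-/- replicate 2 had a Spearman correlation of 0.898 with its own scanner signal, against 1.00 for the other arrays, so this alternative may rest on another hybridisation. The files hold no columns of fold changes or p-values, and 0 columns were left unassigned. Positions are those of mm9.

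Control and outlier spots were left out, spots of a probe were averaged, and no spot was saturated. Log2 signals were centred per array on a 75th percentile, computed from the 15150 probes detected (well above background) everywhere, since most probes were not detected on 5 of the 6 arrays. A probe entered the comparison if 1 genotype had it detected in each of its 3 arrays. The fit used lmFit and eBayes of limma 3.58.1 under R 4.3.3, two-sided, with Benjamini-Hochberg adjustment over all 18547 probes, and was tested on simulated data. A single probe was compared by exact permutation of the arrays. A bound on a fold was set from the lowest signal well above background on each array of the dim genotype, or the probe's own if higher. It covers that probe with the reported scaling only. The number of arrays limits the precision.

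Groups and replicate numbers came from the sample labels. Same-numbered arrays deviated together from their genotype means (r = 0.537, 0.310 and 0.423), and arrays of different numbers reached no more than 0.184. These correlations are not independent, since the deviations within a genotype sum to 0. The study's description speaks of pairs of mice, so the numbers may pair the samples, which was not tested. The reported comparison has no block because the methods' test is unpaired. The members, lists and tests were chosen with earlier results of these data known. All members were named by every probe, each represented by its brightest tested probe, and from each list the highest and lowest tested gene, with the 5 genes most correlated with 1 member. Alternatives are given in the closing section. One marker gene is not reported here.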

Additional observations from a re-analysis of the deposited data

How the results depend on the processing

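Of 177 values of the members recomputed under the alternatives, 174 kept their direction and 3 reversed. These were Egr3, to 0.078 in the authors' table, and Ier5, to 0.064, and Btg2, to 0.24, with the 75th percentile of all probes. Many of the 177 could not reverse. Changing the filter repeats a member's own value, as does the replicate block where no array is missing. So does the mean over probes for genes with 1 tested probe. The slide block gives the same values as leaving out P38α-/- replicate 3, which was alone on its slide. Egr2 and Egr3 were well above background on no array. The count therefore does not measure robustness. The count of members called, 0 as reported, was 3 with the percentile of all probes, 4 with array weights and 0 to 1 when single arrays were left out, and 0 under each other alternative. The 29 genes called among all became 778 with the percentile of all probes, 1647 with array weights, 67 with the replicate number as a block, 62 with only probes well above background on all arrays, 17 with normexp, 12 with quantile normalization, 11 in the authors' table, 8 with centring on spike-in spots, 2 with the methods' unpaired equal-variance test, and 0 both with the slide as a block and with no filter. Leaving out single arrays, with the filter on dim probes applied anew, gave 0 to 304, with 304 only without P38α+/- replicate 3 and 0 without any other array. The cause was not tested. Of the called genes 14.6% were higher with array weights, 16.8% without P38α+/- replicate 3, 25.0% with spike-in centring, 91.7% with quantile normalization and 26.9% with the replicate block, against 79.3% as reported. With the replicate block the adjusted p in limma came to 0.0576 for Nr4a2, 0.0630 for Ier3, 0.0663 for Nr4a1 and 0.108 for Klf6, and no call of a member changed. Dim signal limits Egr1, Egr2, Egr3 and the tested probe of Nr4a2, which were not well above background in the arrays labelled P38α-/-, and detection was highest in P38α+/- replicate 1. The mean over a gene's probes in place of the brightest had 28 genes called, and Ier5 read −0.80.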
